A study of Homo sapiens with 12 samples.

Results

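The transcriptome of RL cells was set against that of KARPAS-422 cells at baseline, that is in vehicle alone. Both are established human lines of diffuse large B cell lymphoma of the germinal centre type, and both carry an activating change in the SET domain of EZH2, so that neither serves as an EZH2 wild type control. RL is the line described as not responding phenotypically to EZH2 inhibition, and KARPAS-422 is one of the responsive lines. RL DMSO cells (n = 2 libraries) and KARPAS-422 DMSO cells (n = 3 libraries) were each grown for 4 days in 0.1% DMSO, per the labels. For RL the compound field of the deposited sample information holds library numbers, although its sample and group names give DMSO, and the lysis reagent of each library, one of a pair named, is not stated. Each group is 1 cell line, and whether its libraries came from separate cultures is not stated, so that a p-value reflects how far these libraries scatter and that scatter may be technical. Genes were included where FPKM, fragments normalised for transcript length and for the number of mapped fragments, was at least 1 in at least 2 of the 5 libraries. This kept 15498 of the 63129 gene IDs, and 10781 of those kept (69.6%) were protein-coding. Where other libraries of the series are cited as levels, they are Pfeiffer DMSO (n = 2), a further responsive line with an activating EZH2 change, and KARPAS-422 treated with 1.5 µM of the EZH2 inhibitor CPI-169 (n = 3).

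EZH2 is the catalytic subunit of Polycomb repressive complex PRC2, which methylates lysine residues of histone H3 and so keeps genes silent. In germinal centre B cells it represses cell cycle inhibitors and genes of plasma cell exit, and activating changes of its SET domain raise the trimethylated form of the mark. B cells in the germinal centre divide quickly, express BCL6, and receive signals through the B cell receptor, CD40 and cytokine receptors. These act through the NF-kappaB, ERK and JAK-STAT pathways. Type I interferon acts through JAK kinases, STAT factors and IRF9 to induce antiviral genes, and the series concerns EZH2 and that response.

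Between 14018 and 14306 genes per library reached 1 FPKM, and the FPKM sums ran from 371965 to 462964. The absolute depth is unknown. Across the tested genes Pearson's r on the log2 scale was 0.997 between the RL libraries, 0.992 to 0.996 between the KARPAS-422 libraries and 0.78 to 0.792 between lines. Seeding density differed, at 200000 cells per ml for RL and 500000 for KARPAS-422, and the library numbers of the lines come from different series. None of these can be told apart from the line.

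The lines differed across most of the transcriptome. Of the 15498 genes, 12302 (79.4%) passed limma at a Benjamini-Hochberg adjusted p under 0.05, 6181 higher (39.9%) and 6121 lower (39.5%) in RL. With a change of at least 2-fold as a further condition, 2591 genes (16.7%) were higher and 2685 (17.3%) lower in RL, and the median log2 fold change over all genes was 0.01. All log2 fold changes are RL over KARPAS-422 on the log2(FPKM + 1) scale, which understates changes of low genes. Because most genes passed at this threshold, gene groups are described mainly by the members that passed at 2-fold or more, to be read against these shares. Since most genes passed, a lack of overlap between the libraries of the lines does not by itself set a gene apart. Its share over all genes was not counted. The libraries are bulk RNA, so fewer cells with a transcript and less of it per cell cannot be told apart.

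**Figure D1:**
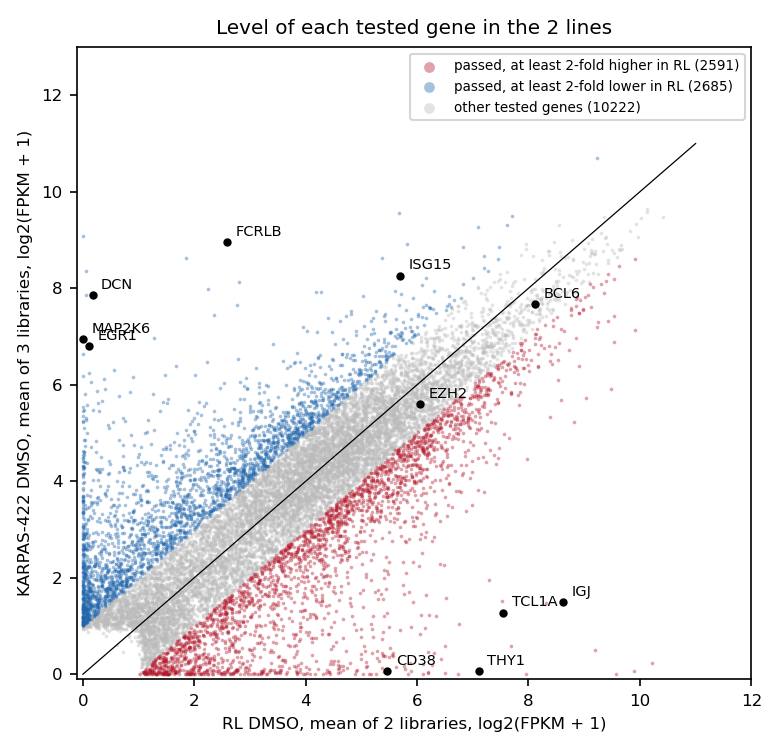
Each point is a tested gene, with its mean over the 2 RL DMSO libraries on the horizontal axis and its mean over the 3 KARPAS-422 DMSO libraries on the vertical axis, both in log2(FPKM + 1). Red and blue points passed at 2-fold or more, 2591 of them higher and 2685 lower in RL, and grey points are the other tested genes; EZH2 lies near the diagonal line of equal level, and THY1 and DCN lie near opposite axes.

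Both lines expressed B cell and germinal centre genes. BCL6, the transcriptional repressor that holds cells in the germinal centre programme, was at 275 and 280 FPKM in RL libraries and at 208, 203 and 194 FPKM in KARPAS-422 libraries. All RL values lay above all KARPAS-422 values, by a log2 fold change of 0.46 ± 0.0846 (SE), and limma gave an adjusted p of 0.00235. Under quantile normalization BCL6 had a log2 fold change of 0.06 and did not pass (limma adjusted p = 0.663). With all 12 libraries fitted together the log2 fold change was again 0.46, and the call was lost (limma adjusted p = 0.199). CD79B, the signalling chain of the B cell receptor, was at 563 and 562 FPKM in RL and 452, 567 and 526 FPKM in KARPAS-422, so the groups overlapped and the test was not passed (limma adjusted p = 0.42). PRDM1 and IRF4, factors of plasma cell differentiation, were under 0.21 FPKM in all 5 libraries. Markers of other cell types did not form complete sets in either line. T and NK cell markers summed to 89.7 to 94.4 FPKM in RL and 86.3 to 95.3 FPKM in KARPAS-422 over 20 genes. LCK was the highest in RL, at 60.4 and 65.5 FPKM. CD247 was the highest in KARPAS-422, at 36.4, 46.4 and 46.1 FPKM. CD2 was at or under 0.0962 FPKM in every library. Of the 20 genes 5 to 7 were listed at 0 in an RL library and 7 to 9 in a KARPAS-422 library. Only 6 were tested, 4 of them higher and 2 lower in RL by 2-fold or more. The 13 myeloid markers summed to 28.3 to 30.2 FPKM in RL and 3.15 to 3.48 FPKM in KARPAS-422, led by CD33 in every library. CD14 and LYZ were under 0.16 FPKM in all 5 libraries. The 3 myeloid markers that were tested were all higher in RL by 2-fold or more.

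EZH2 itself was expressed somewhat more in RL. Its level was 66.1 and 65.3 FPKM in RL libraries and 44.4, 48.7 and 49.1 FPKM in KARPAS-422 libraries. The groups did not overlap, with a log2 fold change of 0.47 ± 0.0688 (SE; limma adjusted p = 0.000817). EZH1, the paralogue that can replace EZH2 in PRC2, was at 29.3 and 31.5 FPKM in RL and 31.4, 33.7 and 32.9 FPKM in KARPAS-422. Those ranges overlapped and the test was not passed. Under quantile normalization EZH1 passed, with a log2 fold change of -0.17 (limma adjusted p = 0.0365). Without KARPAS-422 replicate 1 it passed at -0.13 (limma adjusted p = 0.044). Among 13 PRC2 subunits and H3K27 demethylases 5 were higher and 6 lower in RL, 2 and 3 of them by 2-fold or more, beside 16.7% and 17.3% of all genes; under quantile normalization 1 was higher by 2-fold or more. PHF19, a PRC2 subunit that binds methylated H3K36, was at 71.3 and 72.1 FPKM in RL and 26.8, 30.7 and 30 FPKM in KARPAS-422. The demethylases that remove the EZH2 mark were both lower in RL. KDM6B was at 8.43 and 7.71 FPKM in RL, against 56.4, 44.8 and 46.3 FPKM in KARPAS-422 (log2 fold change -2.46 ± 0.11 SE, limma adjusted p = 3.51e-06). KDM6A, which is encoded on the X chromosome, was at 8.78 and 9.86 FPKM in RL and 30.4, 32 and 31.5 FPKM in KARPAS-422. No library of one line reached the range of the other for either gene.

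The 19 subunits of PRC1, the complex that ubiquitinates H2A and reads the PRC2 mark, split 9 higher and 10 lower in RL. Of all genes 39.9% were higher and 39.5% lower. By 2-fold or more 4 subunits were higher and 5 lower, beside 16.7% and 17.3% of all genes. CBX2, a chromobox reader, was higher in RL by 1.38 ± 0.103 (log2, SE). PCGF1 was lower in RL, at 8.71 and 9.62 FPKM against 30.7, 36.4 and 38.1 FPKM in KARPAS-422. The maintenance methylation machinery of DNA stood higher in RL. DNMT1, the maintenance methyltransferase, was at 174 and 176 FPKM in RL and 47.8, 50.5 and 47.1 FPKM in KARPAS-422. UHRF1, which recruits it to hemimethylated DNA, was at 25.8 and 25.4 FPKM in RL and 5.9, 5.84 and 5.64 FPKM in KARPAS-422. TET2, which oxidises methylated cytosine, went the other way, at 0.811 and 0.843 FPKM in RL and 5.7, 5.32 and 5.38 FPKM in KARPAS-422.

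Interferon-stimulated genes were broadly lower in RL. Of 79 listed genes 67 were tested, 5 were higher and 56 lower in RL, and 45 of those were lower by 2-fold or more, against 17.3% of all genes; 3 were higher by 2-fold or more. The count of higher genes was 3 without RL replicate 1 or without KARPAS-422 replicate 2. The median log2 fold change of the tested members was -1.82, beside 0.01 over all genes. Their median level was 6.09 and 5.24 FPKM in RL libraries and 17.4, 18.3 and 17.5 FPKM in KARPAS-422 libraries. In Pfeiffer DMSO libraries it was 5.32 and 5.18 FPKM, so a low median was not particular to RL.

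IFI44, an interferon-induced protein, was at 4.44 and 2.92 FPKM in RL and at 70.6, 100 and 93.1 FPKM in KARPAS-422. The log2 fold change was -4.25 ± 0.19 (SE; limma adjusted p = 3.58e-06), and the RL libraries lay far below the KARPAS-422 libraries. The antiviral GTPase MX2 was at 0.54 and 0.786 FPKM in RL and at 17.6, 18.3 and 17.5 FPKM in KARPAS-422. Its relative MX1 was at 17.5 and 11.5 FPKM in RL and at 142, 154 and 143 FPKM in KARPAS-422. SAMD9L, an inhibitor of translation in infected cells, was at 0.943 and 0.66 FPKM in RL and at 17.4, 18.9 and 19.1 FPKM in KARPAS-422. None of these genes had overlapping groups. ISG15, a ubiquitin-like modifier, was at 60.4 and 41.4 FPKM in RL and 249, 355 and 314 FPKM in KARPAS-422 (log2 fold change -2.58 ± 0.203 SE, limma adjusted p = 3.95e-05).

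Not every antiviral gene was lower in RL. IFIT1, an RNA-binding effector, was at 2.57 and 2.17 FPKM in RL and 1.99, 3.34 and 2.91 FPKM in KARPAS-422, with overlapping groups, and did not pass, although limma gave an adjusted p of 0.0429 without KARPAS-422 replicate 1. IFITM2, a membrane protein that blocks viral entry, was at 112 and 107 FPKM in RL and at 12.8, 14.7 and 10.5 FPKM in KARPAS-422. Its log2 fold change of 3.02 ± 0.129 (SE; limma adjusted p = 2.9e-06) was opposite to that of most of the list. BST2, the tether that holds budding virions at the cell surface, was at 128 and 117 FPKM in RL and 45.3, 56.2 and 54.1 FPKM in KARPAS-422. The adaptor TRIM14 was higher in RL as well, at 22.8 and 23.9 FPKM against 7.01, 5.98 and 5.83 FPKM in KARPAS-422.

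**Figure D2:**
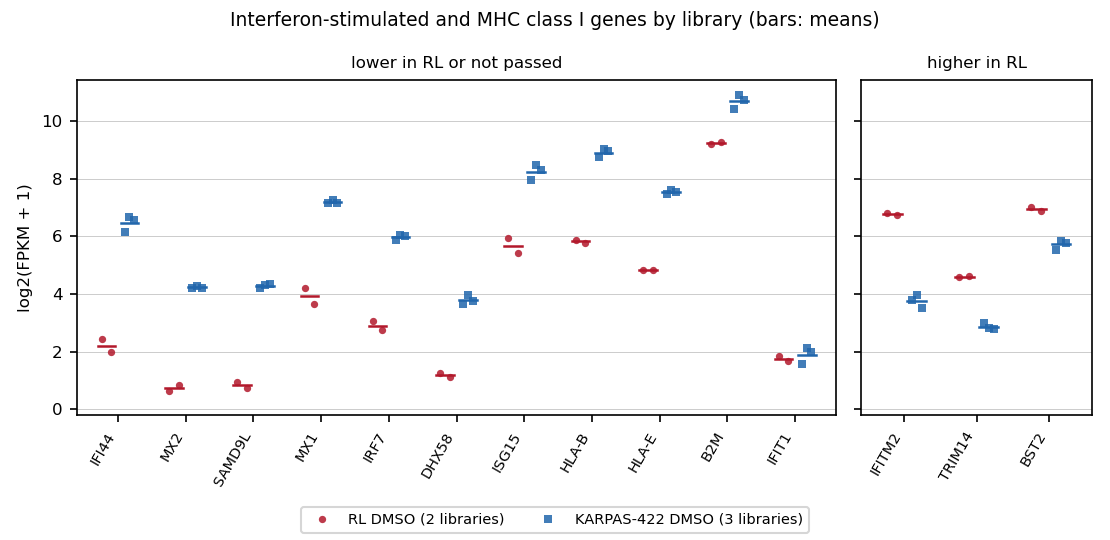
Levels in log2(FPKM + 1) of interferon-stimulated and MHC class I genes, with RL DMSO libraries as red circles left of KARPAS-422 DMSO libraries as blue squares and bars at the means. IFI44 to ISG15 and the MHC class I genes lie lower in RL, IFIT1 overlaps, and IFITM2, TRIM14 and BST2 lie higher in RL.

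The upstream components were mixed. IRF7, which drives interferon genes themselves, was at 7.28 and 5.65 FPKM in RL and 58, 65.4 and 63 FPKM in KARPAS-422 (log2 fold change -3.09 ± 0.107 SE, limma adjusted p = 1.37e-06). It is interferon-stimulated in turn. IRF5, a factor downstream of Toll-like receptors, was instead at 11.4 and 10.3 FPKM in RL and 0.926, 0.894 and 0.838 FPKM in KARPAS-422. For the receptors, IFNAR2 of the type I receptor was higher in RL (28.8 and 29.2 FPKM against 12, 12.1 and 13.5 FPKM in KARPAS-422). IFNGR1 of the type II receptor was lower in RL (6.34 and 6.45 FPKM against 43.6, 55.4 and 53.6 FPKM in KARPAS-422). Of 24 receptors, JAK kinases, STATs and IRFs tested, 4 were higher and 8 lower in RL by 2-fold or more. Among 23 nucleic acid sensors and adaptors, 3 were higher and 8 lower by 2-fold or more. The higher counts of both lists were near the share of all genes, 16.7%, and the lower counts were above theirs, 17.3%. TLR3, the endosomal sensor of double-stranded RNA, was under 0.06 FPKM in both RL libraries and at 4.87, 4.99 and 5.27 FPKM in KARPAS-422. MB21D1, the gene of the DNA sensor cGAS, was at 0.28 and 0.349 FPKM in RL and 8.12, 8.04 and 8.16 FPKM in KARPAS-422. IFI16, a sensor of nuclear DNA, was higher in RL, at 75.8 and 73.6 FPKM against 23.5, 26.9 and 26.7 FPKM in KARPAS-422.

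In the other libraries of the series the same genes stood as follows. MX1 was at 21.7 and 22.1 FPKM in Pfeiffer DMSO libraries and averaged 434 ± 7.65 FPKM in KARPAS-422 CPI-169 libraries (SD, n = 3). ISG15 was at 8.05 and 8.57 FPKM in Pfeiffer DMSO and 788 ± 84.8 FPKM in KARPAS-422 CPI-169 (SD, n = 3). The low RL level of ISG15 was thus above both Pfeiffer values. IFI44 was at 0.146 and 0.18 FPKM in Pfeiffer DMSO and 461 ± 36.4 FPKM in KARPAS-422 CPI-169 (SD, n = 3). These values were not tested here, since the CPI-169 and RL comparisons share the KARPAS-422 DMSO libraries.

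Promoter windows of RefSeq (GRCh38.p14, 250 bases before to 50 after the start) were searched on both strands for the core of the interferon-stimulated response element, GAAANNGAAA, the site bound by the complex of STAT factors and IRF9. It was found in 3.65% of all 27305 windows and in 30 of the 52 interferon-stimulated genes with a window. Windows were found for 77.6% of the tested list, under 80%, so the comparison of shares is void. The windows of IFI44 (chr1:78649539-78649838, plus strand) and MX1 (chr21:41420308-41420607, plus strand) are shown because IFI44 had the lowest log2 fold change of the list and MX1 is a common readout of the response; capitals mark the match, which is on the reverse strand in IFI44.
IFI44: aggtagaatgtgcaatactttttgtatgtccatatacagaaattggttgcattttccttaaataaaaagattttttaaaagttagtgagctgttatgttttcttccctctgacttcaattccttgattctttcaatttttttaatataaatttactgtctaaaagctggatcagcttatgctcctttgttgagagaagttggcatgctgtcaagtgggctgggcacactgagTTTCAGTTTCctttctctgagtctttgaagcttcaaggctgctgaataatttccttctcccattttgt
MX1: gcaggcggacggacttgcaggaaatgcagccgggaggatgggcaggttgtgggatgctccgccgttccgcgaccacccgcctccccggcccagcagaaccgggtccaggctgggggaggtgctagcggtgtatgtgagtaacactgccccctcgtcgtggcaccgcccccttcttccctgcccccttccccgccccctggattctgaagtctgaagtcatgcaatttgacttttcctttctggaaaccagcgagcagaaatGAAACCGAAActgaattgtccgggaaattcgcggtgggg
In IFI44 the match lies 18 bases before the start, and in MX1 it lies just past it. A match is a description of these letters, and no binding was measured.

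Genes of MHC class I presentation, which display peptides to CD8 T cells, were lower in RL as well. Of 21 tested, 9 were lower in RL by 2-fold or more and 0 higher, beside 17.3% and 16.7% of all genes. HLA-B was at 57.5 and 54 FPKM in RL and at 430, 521 and 493 FPKM in KARPAS-422 (log2 fold change -3.08 ± 0.108 SE, limma adjusted p = 1.41e-06). HLA-E was at 27.3 and 27.2 FPKM in RL and at 175, 193 and 184 FPKM in KARPAS-422. B2M, the invariant light chain, was at 590 and 615 FPKM in RL and 1374, 1930 and 1694 FPKM in KARPAS-422. No HLA library values overlapped between lines, but HLA genes are polymorphic and near-identical to each other, and their single levels are uncertain. The chaperone CALR was higher in RL by 0.84 ± 0.0804 (log2, SE). The 18 class II genes present to CD4 T cells. Of them 6 were higher and 9 lower in RL, beside 39.9% and 39.5% of all genes. By 2-fold or more 5 were lower and 1, HLA-DOA, was higher, at 11.1 and 11.5 FPKM in RL and 4.09, 5.43 and 5.33 FPKM in KARPAS-422; none was higher by 2-fold or more without KARPAS-422 replicate 1. CIITA, their master activator, was at 10.8 and 12 FPKM in RL and 18.7, 15.4 and 16.8 FPKM in KARPAS-422 (log2 fold change -0.53 ± 0.0963 SE, limma adjusted p = 0.00227). HLA-DRB5, a beta chain gene with close paralogues, was at 38.3 and 36.2 FPKM in RL and 161, 201 and 189 FPKM in KARPAS-422.

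The lines expressed different immunoglobulin chains. IGHM, the mu heavy chain of IgM, was at 748 and 772 FPKM in RL and listed at 0 in all 3 KARPAS-422 libraries. IGLC1, a lambda light chain gene, was at 1153 and 1223 FPKM in RL and at 0.131, 0.234 and 0.186 FPKM in KARPAS-422. The kappa light chain gene IGKC was the reverse, at 5.49e-09 and 4.5e-09 FPKM in RL and at 493, 591 and 546 FPKM in KARPAS-422. RL therefore expressed lambda and KARPAS-422 kappa transcripts. IGHG1, a gamma heavy chain gene, was present in both, at 108 and 109 FPKM in RL and 152, 147 and 139 FPKM in KARPAS-422. IGLL5, at 588 and 586 FPKM in RL and 0.469, 0.268 and 0.504 FPKM in KARPAS-422, overlaps IGLC1 and cannot be counted apart from it with certainty. Constant region genes are near-copies of each other, and their single levels are uncertain.

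Genes of immunoglobulin assembly and secretion were higher in RL. IGJ, the joining chain of polymeric IgM, was at 380 and 408 FPKM in RL and 1.35, 2.41 and 1.69 FPKM in KARPAS-422 (log2 fold change 7.15 ± 0.153 SE, limma adjusted p = 2.57e-07). MZB1, a chaperone of heavy chain assembly, was at 321 and 317 FPKM in RL and 1.54, 2.15 and 1.67 FPKM in KARPAS-422. Of 15 tested plasma cell genes 9 were higher in RL by 2-fold or more and 1, SDC1, was lower. XBP1, the transcription factor of the secretory programme, was at 109 and 104 FPKM in RL and 39, 47 and 47.9 FPKM in KARPAS-422, while PRDM1 and IRF4 were near 0 in both lines. SDC1, the plasma cell surface marker CD138, was at 0.0456 and 0.159 FPKM in RL and 3.63, 3.6 and 3.49 FPKM in KARPAS-422.

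Germinal centre genes were more often higher in RL. Of 27 tested, 12 were higher by 2-fold or more, against 16.7% of all genes, and 2 were lower; the list median was 0.90. CD38, an ectoenzyme of germinal centre and plasma cells, was at 43.9 and 42.5 FPKM in RL and at 0, 0.0827 and 0.0469 FPKM in KARPAS-422. BACH2, a repressor that delays plasma cell differentiation, was at 42.3 and 39.3 FPKM in RL and 0.871, 0.591 and 1.03 FPKM in KARPAS-422. LRMP, an endoplasmic reticulum protein abundant in germinal centre cells, was at 676 and 701 FPKM in RL and 136, 174 and 164 FPKM in KARPAS-422. All of these were separated between lines. HTR3A, a serotonin-gated channel, was the extreme in the other direction, at 0.686 and 0.674 FPKM in RL and 36.6, 38.6 and 36.4 FPKM in KARPAS-422 (log2 fold change -4.51 ± 0.0668 SE, limma adjusted p = 9.47e-08). The coactivator TCL1A, a known product of germinal centre and naive B cells, was at 187 and 184 FPKM in RL and 1.28, 1.3 and 1.68 FPKM in KARPAS-422.

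B cell identity factors and surface antigens were mixed. Of 20 tested 3 were higher and 5 lower in RL by 2-fold or more, beside 16.7% and 17.3% of all genes. EBF1, a specification factor of the lineage, was at 9.37 and 8.76 FPKM in RL and 63.5, 60.4 and 61.3 FPKM in KARPAS-422. MS4A1, the gene of CD20, was higher in RL, at 260 and 255 FPKM against 138, 177 and 172 FPKM in KARPAS-422. CD72, an inhibitory coreceptor, showed the widest difference upward, at 66.1 and 66.6 FPKM in RL and 1.19, 1.52 and 1.33 FPKM in KARPAS-422.

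Most Fc receptor-like and Fc receptor genes, which modulate signals of the B cell receptor, were lower in RL. Of 10 tested 8 were lower, 7 of them by 2-fold or more, and 2, FCER2 and FAIM3, were higher. The list median was -3.91. The median level was 1.49 and 1.66 FPKM in RL and 0.227 and 0.28 FPKM in Pfeiffer DMSO libraries. A low median was thus not particular to RL. FAIM3 was higher by 2-fold or more, as was FCER2 at a pseudocount of 0.1 or 0.5; both are named after their values were seen. FCRLB, an intracellular member, was at 5.18 and 4.87 FPKM in RL and at 464, 530 and 493 FPKM in KARPAS-422 (log2 fold change -6.36 ± 0.0798 SE, limma adjusted p = 8.29e-08). FCGR2B, the inhibitory IgG receptor, was at 6.55 and 5.41 FPKM in RL and at 247, 304 and 285 FPKM in KARPAS-422. FCRL1, an activating coreceptor, was at 0.12 and 0.251 FPKM in RL and 59, 54.7 and 57.5 FPKM in KARPAS-422. The RL and KARPAS-422 libraries did not overlap for any of the 10, but nor did they for any of the 19 PRC1 subunits. The same held for all 48 cell cycle genes and for 63 of 67 interferon-stimulated genes. A lack of overlap is thus not particular to this list, and its share over all genes was not counted. In B cell receptor signalling 3 of 29 genes were higher and 9 lower by 2-fold or more, beside 16.7% and 17.3% of all genes. Src family kinases differed by gene. FYN was at 14.4 and 16 FPKM in RL and 133, 136 and 144 FPKM in KARPAS-422. LCK was at 60.4 and 65.5 FPKM in RL and 11.1, 10.6 and 11.8 FPKM in KARPAS-422. SH3BP5, a binding partner of BTK, was at 29.7 and 29 FPKM in RL and 0.0464, 0.0495 and 0.0835 FPKM in KARPAS-422.

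Receptors that place B cells in tissue differed as well. CXCR4, the chemokine receptor of the germinal centre dark zone, was at 74.3 and 71.1 FPKM in RL and 0.414, 0.414 and 0.298 FPKM in KARPAS-422. Integrin chains differed in both directions. ITGAL, the alpha chain of LFA-1, was at 45 and 44.5 FPKM in RL and 0.387, 0.505 and 0.504 FPKM in KARPAS-422. ITGA4, the alpha chain of VLA-4, was at 0.239 and 0.182 FPKM in RL and 47.9, 50.3 and 46.5 FPKM in KARPAS-422 (log2 fold change -5.35 ± 0.0707 SE, limma adjusted p = 8.36e-08). Of 16 tested genes 8 were higher and 3 lower in RL by 2-fold or more, beside 16.7% and 17.3% of all genes.

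NF-kappaB genes were higher in RL. Of 23 subunits and targets 18 were higher and 4 lower in RL, 10 and 2 of them by 2-fold or more. The median log2 fold change was 0.82. Their median level was 18.3 and 18.7 FPKM in RL and 27.6 and 30.2 FPKM in Pfeiffer DMSO libraries. A high median was thus not particular to RL. TNFAIP2, a target induced by tumour necrosis factor, was at 18.9 and 21.7 FPKM in RL and at 0.0472, 0 and 0.0381 FPKM in KARPAS-422. CD83, an activation marker, was at 32.5 and 32.7 FPKM in RL and 0.35, 0.436 and 0.417 FPKM in KARPAS-422 (log2 fold change 4.58 ± 0.0765 SE, limma adjusted p = 1.23e-07). BIRC3, an inhibitor of apoptosis and of alternative NF-kappaB signalling, was at 24.9 and 26 FPKM in RL and 0.293, 0.348 and 0.528 FPKM in KARPAS-422. The levels of these genes did not overlap between lines, and CYLD, a deubiquitinase that restrains NF-kappaB, was lower in RL by -1.34 ± 0.115 (log2, SE).

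Several receptors and ligands of the TNF superfamily were also higher in RL, and others were lower. Signalling through them was not measured. CD40, the receptor of T cell help, was at 56.3 and 57.3 FPKM in RL and 2.3, 2.08 and 2.44 FPKM in KARPAS-422. CD70, a ligand of the TNF family, was at 70 and 71.5 FPKM in RL and 2.14, 1.83 and 2.34 FPKM in KARPAS-422. Its receptor CD27 was at 175 and 173 FPKM in RL and 20.7, 22.6 and 20.9 FPKM in KARPAS-422. Of 16 TNF superfamily genes 8 were higher in RL by 2-fold or more and 3 lower, beside 16.7% and 17.3% of all genes. Lymphotoxin was among the lower ones: LTA was at 3.49 and 3.97 FPKM in RL and 252, 263 and 240 FPKM in KARPAS-422. TNF, its neighbour on chromosome 6, was at 2.12 and 2.33 FPKM in RL and 28, 32.7 and 31.7 FPKM in KARPAS-422. Among interleukin receptors, IL21R was at 35.3 and 35 FPKM in RL and 3.03, 2.92 and 2.63 FPKM in KARPAS-422, and IL4R at 30.5 and 27.6 FPKM in RL and 0.873, 0.915 and 0.905 FPKM in KARPAS-422.

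The kappaB site consensus, searched by name on both strands, was found in 5.72% of all RefSeq windows and in 7 of 19 windows of the list (82.6% of its tested members had one). The list is made of NF-kappaB subunits and targets, so a larger share there says nothing of RL. Members higher in RL held the site in 6 of 16 windows, 37.5%, beside 36.8% of the list. The window of BIRC3 (chr11:102317234-102317533, GRCh38.p14, plus strand) is shown because this gene had the largest log2 fold change of a list member with a match; capitals mark the 2 matches.
BIRC3: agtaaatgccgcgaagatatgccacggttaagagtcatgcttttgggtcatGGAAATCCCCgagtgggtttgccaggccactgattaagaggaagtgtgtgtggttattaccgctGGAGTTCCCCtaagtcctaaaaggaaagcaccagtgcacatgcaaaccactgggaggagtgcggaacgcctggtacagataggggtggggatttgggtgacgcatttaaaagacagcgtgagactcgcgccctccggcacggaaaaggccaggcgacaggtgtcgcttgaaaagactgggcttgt
The first match begins 199 bases before the start. No binding was measured.

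Feedback genes of the ERK cascade were lower in RL. Of 10 tested feedback genes 8 were lower in RL, all by 2-fold or more, and 1, SPRED2, was higher, with a list median of -3.99. The median level of the list was 0.224 and 0.143 FPKM in RL libraries and 19.7, 20.5 and 18.7 FPKM in KARPAS-422 libraries. It was 0.379 and 0.299 FPKM in Pfeiffer DMSO libraries, so a low median was not particular to RL. DUSP5, a nuclear phosphatase of ERK, was at 0.0337 and 0.0475 FPKM in RL and 39.7, 39.2 and 37.7 FPKM in KARPAS-422. DUSP4 was at 0.0104 and 0.0134 FPKM in RL and 23.4, 23.9 and 23.2 FPKM in KARPAS-422. ETV5, an ETS factor induced by ERK, was at 0.334 and 0.308 FPKM in RL and 61.3, 57.4 and 58.8 FPKM in KARPAS-422 (log2 fold change -5.51 ± 0.0649 SE, limma adjusted p = 8.29e-08). SPRED2, an inhibitor of the cascade, was at 40.3 and 43.9 FPKM in RL and 19, 15.6 and 15.7 FPKM in KARPAS-422. A kinase of a parallel pathway, MAP2K6, which activates p38, was at 0.0155 and 0 FPKM in RL and at 107, 130 and 129 FPKM in KARPAS-422.

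Immediate early genes are the first to respond to growth signals. Of 15 tested 4 were lower and 0 higher in RL by 2-fold or more, beside 17.3% and 16.7% of all genes. At a pseudocount of 0.1, 8 were lower by 2-fold or more. EGR1, a zinc finger factor, was at 0.101 and 0.0592 FPKM in RL and at 123, 104 and 102 FPKM in KARPAS-422 (log2 fold change -6.67 ± 0.0978 SE, limma adjusted p = 9.32e-08). FOS was at 0.354 and 0.308 FPKM in RL and 11.2, 12.8 and 11.8 FPKM in KARPAS-422. JUNB, its dimer partner, was at 30.9 and 33.1 FPKM in RL and 95.6, 119 and 118 FPKM in KARPAS-422. DUSP2 and BTG2 were higher in RL, by 0.84 ± 0.0788 and 0.49 ± 0.066 (log2, SE). In Pfeiffer DMSO libraries EGR1 was at 3.12 and 3.52 FPKM, and in KARPAS-422 CPI-169 libraries it averaged 18.3 ± 1.56 FPKM (SD, n = 3).

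The window of EGR1 (chr5:138465229-138465528, GRCh38.p14, plus strand) is shown because it was the 1 of 15 immediate early windows that held the CArG box, the core of the serum response element, which was found by name on both strands in 1.29% of all RefSeq windows. Capitals mark the 2 matches, each of which reads as a match on both strands.
EGR1: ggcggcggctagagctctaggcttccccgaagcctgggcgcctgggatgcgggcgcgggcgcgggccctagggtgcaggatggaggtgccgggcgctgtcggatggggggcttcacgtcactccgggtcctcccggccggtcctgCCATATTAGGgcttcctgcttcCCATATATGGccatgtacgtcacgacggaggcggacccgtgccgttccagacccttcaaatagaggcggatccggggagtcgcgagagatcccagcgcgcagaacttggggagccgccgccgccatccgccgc
The first match begins 105 bases before the start. The other immediate early windows held none of these letters within the 300 bases.

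**Figure D3:**
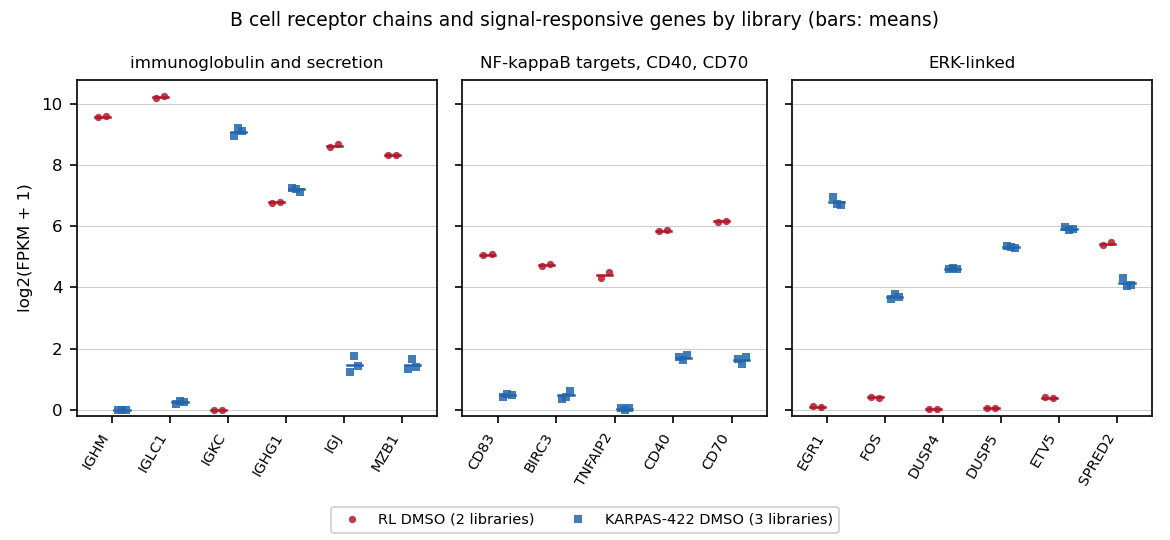
Levels in log2(FPKM + 1) of immunoglobulin, NF-kappaB and ERK-linked genes, with RL DMSO libraries as red circles left of KARPAS-422 DMSO libraries as blue squares and bars at the means. IGHM and IGLC1 lie high in RL, IGKC in KARPAS-422; the NF-kappaB targets, CD40 and CD70 lie higher in RL, and the ERK-linked genes other than SPRED2 lie near 0 in RL.

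Proliferation genes were higher in RL. Of 48 cell cycle and replication genes 45 were higher and 3 lower in RL, 34 of them higher by 2-fold or more and 0 lower, and the list median was 1.46. CHEK1, the checkpoint kinase, was at 98.9 and 97.9 FPKM in RL and 10.4, 9.64 and 10.3 FPKM in KARPAS-422 (log2 fold change 3.16 ± 0.0605 SE, limma adjusted p = 1.81e-07). RRM2, the ribonucleotide reductase subunit that supplies nucleotides, was at 119 and 115 FPKM in RL and 8.44, 10.6 and 9.25 FPKM in KARPAS-422. CDT1, which licenses replication origins, was at 65.3 and 64.9 FPKM in RL and 5.33, 6.55 and 6.18 FPKM in KARPAS-422. The 3 lower genes were GINS3, RFC3 and TTK, with log2 fold changes between -0.32 and -0.73. Among G1 regulators, CCND3 was at 117 and 114 FPKM in RL and 42.7, 43.9 and 40.8 FPKM in KARPAS-422. E2F2, an activator of S phase genes, was at 33.6 and 32.2 FPKM in RL and 3.29, 3.28 and 2.64 FPKM in KARPAS-422. Seeding density differed with the line, and the part of either in these levels cannot be told apart.

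CDK inhibitors did not move as a group, with 4 higher and 4 lower of 10, beside 39.9% and 39.5% of all genes. CDKN2A, a known EZH2 target, was at 75.2 and 77.9 FPKM in RL and 47.6, 77 and 77.3 FPKM in KARPAS-422. The groups overlapped and the difference did not pass, and without KARPAS-422 replicate 1 the log2 fold change was -0.01. CDKN2C was at 84.9 and 87.6 FPKM in RL and 9.92, 14.4 and 15.2 FPKM in KARPAS-422. RB1, the pocket protein, was lower in RL, at 30.5 and 29.9 FPKM against 76.5, 74.6 and 72 FPKM in KARPAS-422. MYC was at 171 and 177 FPKM in RL and 96.8, 110 and 98.6 FPKM in KARPAS-422 (log2 fold change 0.77 ± 0.084 SE, limma adjusted p = 0.000185). Its antagonist MXD1 was at 4.15 and 3.69 FPKM in RL and 25.6, 23.4 and 23.6 FPKM in KARPAS-422.

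Genes of cell death differed in both directions. BCL2, the antiapoptotic gene of germinal centre lymphomas, was at 182 and 195 FPKM in RL and 91.8, 86.5 and 89.1 FPKM in KARPAS-422. The proapoptotic BMF was at 42.3 and 44 FPKM in RL and 3.49, 3.39 and 3.31 FPKM in KARPAS-422, and BIK at 25.3 and 28.2 FPKM in RL and 0.0877, 0.316 and 0.124 FPKM in KARPAS-422. BAX was lower in RL, at 45 and 42.1 FPKM against 103, 121 and 121 FPKM in KARPAS-422. Among recurrently mutated lymphoma genes, the acetyltransferase CREBBP was lower in RL, at 16.2 and 14.7 FPKM against 73.8, 61.9 and 58.9 FPKM in KARPAS-422. Its paralogue EP300 was at 11.5 and 11.5 FPKM in RL and 40, 33.5 and 33.7 FPKM in KARPAS-422. Of 23 p53 targets 15 were higher and 7 lower in RL, 7 and 3 of them by 2-fold or more; 4 were lower without RL replicate 1. Over all genes 39.9% were higher and 39.5% lower, and 16.7% and 17.3% by 2-fold or more. MDM2, the ubiquitin ligase that limits p53, was at 27.1 and 27 FPKM in RL and 10.3, 9.58 and 9.6 FPKM in KARPAS-422. SESN2, a stress-induced target, was lower in RL, at 22.6 and 21.7 FPKM against 47.8, 47.7 and 45.5 FPKM in KARPAS-422.

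Most genes of cholesterol synthesis, glycolysis and ribosome biogenesis were higher in RL. All 23 cholesterol biosynthesis genes passed, 21 higher and 2 lower in RL, and 13 were higher by 2-fold or more. DHCR7, the last reductase of the route, was at 120 and 132 FPKM in RL and 10.3, 9.85 and 10.9 FPKM in KARPAS-422 (log2 fold change 3.49 ± 0.0719 SE, limma adjusted p = 2.27e-07). FDFT1, the squalene synthase, was at 373 and 393 FPKM in RL and 43.6, 55 and 52.7 FPKM in KARPAS-422. SREBF1, a regulator of lipid genes, was lower in RL, at 26.4 and 24.7 FPKM against 47, 40.2 and 34.7 FPKM in KARPAS-422. Of 23 glycolysis genes 18 were higher and 5 lower in RL, and 13 were higher by 2-fold or more. LDHA, which makes lactate, was at 318 and 362 FPKM in RL and 77.5, 90.4 and 86.2 FPKM in KARPAS-422. The enolase ENO2 was lower in RL, at 4.94 and 4.98 FPKM against 19.6, 18.2 and 19.6 FPKM in KARPAS-422. Of 21 ribosome biogenesis genes 16 were higher and 2 lower, 8 of the higher ones by 2-fold or more, with NOLC1 at 108 and 104 FPKM in RL and 30.1, 31 and 32 FPKM in KARPAS-422; under quantile normalization 4 reached 2-fold.

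Genes of the amino acid response differed in both directions. Of 18 tested 1, PHGDH, was higher by 2-fold or more and 6 were lower, beside 16.7% and 17.3% of all genes. PHGDH, the first enzyme of serine synthesis, was at 145 and 146 FPKM in RL and 11.2, 14.1 and 12.8 FPKM in KARPAS-422. DDIT3, the stress factor CHOP, was at 32.4 and 30.5 FPKM in RL and 178, 253 and 250 FPKM in KARPAS-422. ATF5, a stress-responsive factor outside that list and among the most abundant genes lower in RL, was at 51.1 and 49.7 FPKM in RL and 735, 793 and 732 FPKM in KARPAS-422 (log2 fold change -3.87 ± 0.0905 SE, limma adjusted p = 3.22e-07).

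**Figure D4:**
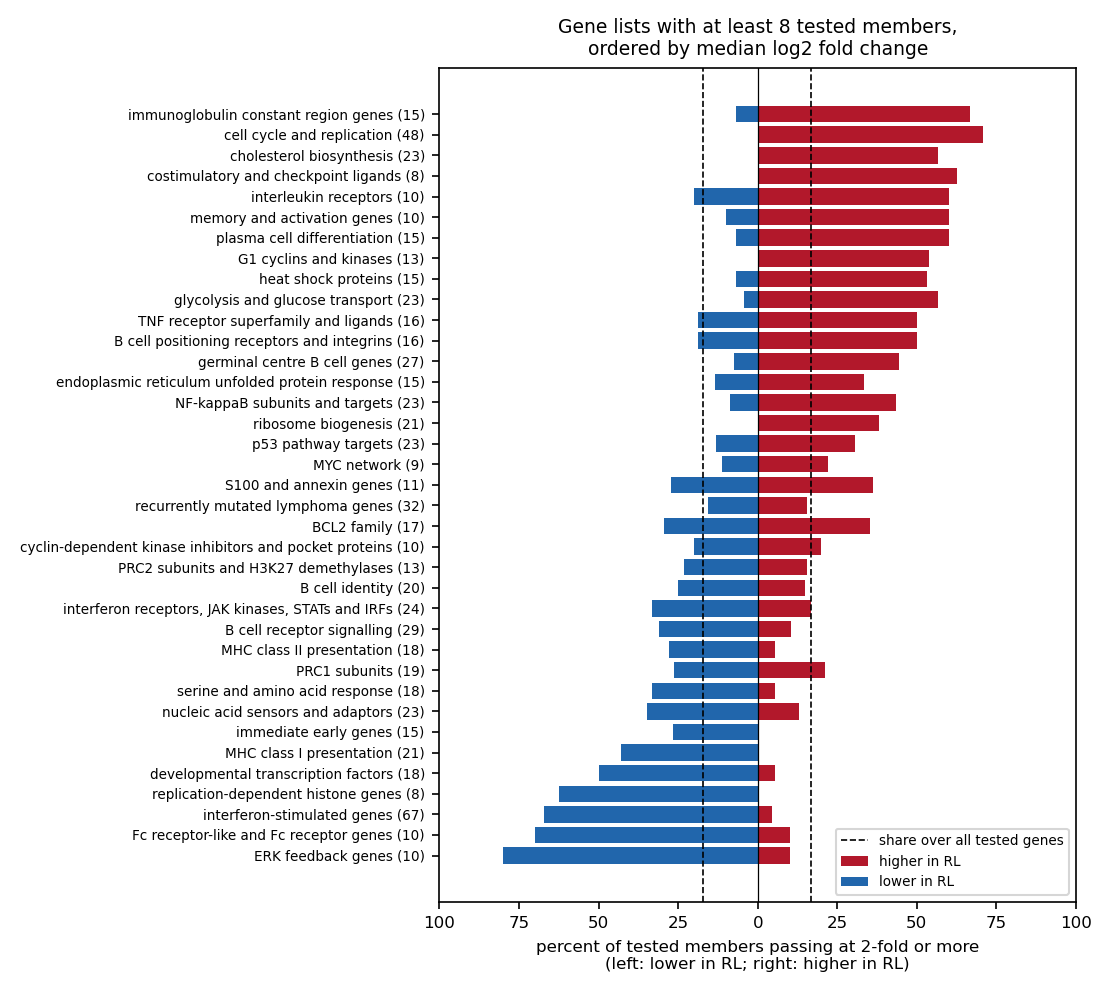
Percent of the tested members of each gene list with at least 8 tested genes that passed at 2-fold or more, lower in RL to the left in blue and higher in RL to the right in red, with tested members in brackets. Dashed lines mark the shares over all tested genes, 17.3% lower and 16.7% higher; cell cycle and cholesterol genes extend to the right, and ERK feedback, Fc receptor and interferon-stimulated genes to the left.

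Some genes were switched between the lines. With at least 5 FPKM in every library of one line and under 0.1 FPKM in every library of the other, 76 genes were in RL only, 49 of them protein-coding, and 100 in KARPAS-422 only, 80 of them protein-coding. In RL these included LSAMP, a neural adhesion molecule, at 104 and 106 FPKM and listed at 0 in all 3 KARPAS-422 libraries. LEF1, the transcription factor of WNT signalling in early lymphocytes, was at 91.1 and 89 FPKM in RL and at 0.0257, 0 and 0.0272 FPKM in KARPAS-422. THY1, a surface glycoprotein of T cells and neurons that missed that threshold in 1 library, was at 134 and 140 FPKM in RL and 0.108, 0.0177 and 0.0166 FPKM in KARPAS-422. In KARPAS-422 they included SLC25A24, a mitochondrial carrier, listed at 0 in both RL libraries and at 42.7, 48.7 and 46.1 FPKM in KARPAS-422. MAGEA1, a cancer-testis antigen, was at 0 and 0.0217 FPKM in RL and 16.3, 19.5 and 19.8 FPKM in KARPAS-422. Of the RL-only genes 29 were at 5 FPKM or more in both Pfeiffer DMSO libraries and 23 under 0.1 FPKM, and of the KARPAS-422-only genes 32 and 25. All these counts keep any immunoglobulin segment, Y chromosome gene or XIST that met the rule. IGHM in RL and IGKC in KARPAS-422 are among them.

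DCN, the gene of the matrix proteoglycan decorin, had the lowest log2 fold change of all protein-coding genes by the naming rule. It was at 0.257 and 0 FPKM in RL and at 205, 250 and 234 FPKM in KARPAS-422 (log2 fold change -7.68 ± 0.125 SE, limma adjusted p = 1.17e-07). The other stromal and epithelial markers did not accompany it. All 14 markers summed to 0.584 to 0.599 FPKM in RL and 206 to 251 FPKM in KARPAS-422, of which DCN made nearly all. COL1A2 was listed at 0 in all 5 libraries, and COL1A1 and EPCAM were under 0.1 FPKM in each. In KARPAS-422 CPI-169 libraries DCN averaged 643 ± 58.7 FPKM (SD, n = 3), and in Pfeiffer DMSO libraries it was at 0.24 and 0.337 FPKM.

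Differences were uneven along the chromosomes. The median log2 fold change of the tested genes was -0.62 on chromosome 18, -0.44 on chromosome 14 and -0.26 on chromosome 19, and 0.34 on chromosome 11, 0.38 on chromosome 7 and 0.39 on chromosome 21. Among protein-coding genes alone the median of chromosome 14 was -0.70, and among genes with a mean of at least 5 FPKM that of chromosome 19 was -0.14. On chromosome 18, 38.7% of genes were lower in RL by 2-fold or more, against 17.3% overall. In running windows of 25 neighbouring protein-coding genes the lowest median was -2.13, on chr19:52693291-54083523 of hg19, bounded by PPP2R1A and ZNF331, where 25 of 25 genes were lower in RL and 24 of them by 2-fold or more. The highest median was 1.95, on chr11:118754474-121179403 of hg19, bounded by CXCR5 and SC5D, where 21 of 25 genes were higher in RL by 2-fold or more. The 5th to 95th percentiles of 10221 overlapping windows were -0.90 and 0.62. These windows were picked as the extremes, so their values are a description. DNA copy number was not measured in these libraries.

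**Figure D5:**
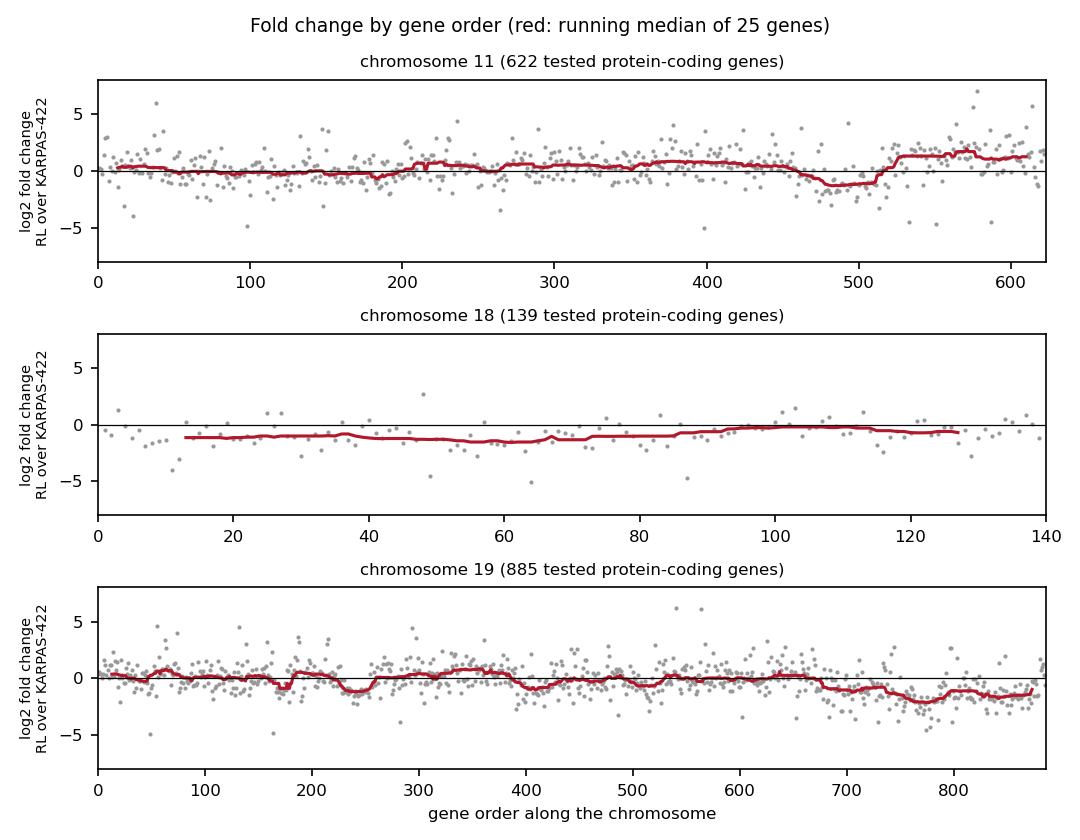
Log2 fold change of RL over KARPAS-422 for each tested protein-coding gene in order along chromosomes 11, 18 and 19, with the running median of 25 genes in red and a line at 0. The running median reaches 1.95 toward the end of chromosome 11 and -2.13 toward the end of chromosome 19, and lies below 0 along chromosome 18.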

How the data were processed

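The library kit, strand handling and annotation release are not stated. The authors deposited FPKM values per Ensembl gene ID. The submitters' processing notes name TopHat 1.4.1, the build hg19 and Cufflinks (version not stated). FPKM removes length and library size, so a few abundant genes can lower all others; the 10 most abundant held 1.93% to 2.38% of each FPKM sum. Counts and depths were not used here. Absolute depth is unknown, and no interval that needs it is given. A value of 0 can be a failed estimate.

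Columns RL DMSO 1 and 2 and KARPAS-422 DMSO 1 to 3 were grouped by their labels. The filter of 1 FPKM (2 of 5 libraries) was followed by log2(FPKM + 1) and by limma 3.58.1 with a mean-variance trend under R 4.3.3, on 3 residual degrees of freedom with a prior of 3.27. P-values were adjusted by Benjamini-Hochberg over all 15498 genes, with a threshold of 0.05. On simulated data with 200 changed genes among 15498, the fit recovered 95.5% of those changed 1.5-fold and 100% of those changed 2-fold or 4-fold. Of the 205 genes it called there, 8 were unchanged. In the libraries 79.4% of genes passed, and recovery with that share of genes changed was not tested. The 45 gene lists and the members were chosen with earlier results of these data known, so lists are described by counts and medians and carry no test. Named genes were EZH2, EZH1 and a short set of B cell and interferon genes; the 12 highest and 12 lowest log2 fold changes of protein-coding genes with 5 FPKM or more; in each list, up to 3 passing members with the highest and 3 with the lowest, at 2 FPKM or more; the 8 most abundant switched genes of each line; and the 10 most abundant genes differing by 2-fold in each direction. PRDM1, IRF4 and the cell type markers are given as levels. Some genes that the rule names are not reported here. Antisense, overlapping and near-identical genes are uncertain. RefSeq promoter windows were matched by Ensembl ID or symbol for 76.6% of tested protein-coding genes, the first window listed for each. Python 3.11.15 was used for summaries and figures. Alternatives were the pseudocount, the low-value filter, the scaling, the libraries fitted, the intensity trend, the replicate block and leaving out each library.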

Additional observations from a re-analysis of the deposited data

How the results depend on the processing

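The count of genes passing stayed within 1.5 times in all 16 other fits. It was 6126 higher and 6098 lower in RL at a pseudocount of 0.1, 7542 and 7418 with no filter on low values, 6096 and 6215 under quantile normalization, 5935 and 5886 with all 12 libraries, and 5188 to 6407 and 5342 to 6625 with 1 library left out. With the replicate block, which joins libraries sharing a replicate number, it was 6125 and 5879. The numbers do not pair the samples by any label, and KARPAS-422 replicate 3 has no partner. Same-numbered deviations correlated at 0.0284 and 0.0345. With 2 RL libraries the RL deviations of a gene are exact opposites, so these values cannot decide whether libraries are paired. Of 4276 values of 269 named genes, 4242 kept their direction and side of the threshold, 29 lost the call, 3 gained it and 2 turned: CD79B was -0.36 under quantile normalization (limma adjusted p = 0.00231), and CDKN2A ran from -0.01 to 0.33 with 1 library left out. The cause was not tested. Switched genes moved with their thresholds by construction, to 201 in RL only and 259 in KARPAS-422 only at 2 and 0.2 FPKM, and to 26 and 46 at 10 and 0.05 FPKM. Of 1408 list counts 45 moved beyond 1.5 times, and 2 of 704 list medians changed sign. Depth is unknown and limits what can be said of levels near 0.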

Other observations

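Further gene groups differed between the lines. Heat shock proteins were higher in RL in 10 and lower in 3 of 15 tested genes, 8 of the higher ones by 2-fold or more. HSPA8, the constitutive chaperone of the HSP70 family, was at 688 and 742 FPKM in RL and at 50.4, 62.3 and 63.9 FPKM in KARPAS-422 (log2 fold change 3.59 ± 0.122 SE, limma adjusted p = 1.26e-06). Of 15 genes of the unfolded protein response 11 were higher and 4 lower in RL. By 2-fold or more 5 were higher and 2 lower, beside 16.7% and 17.3% of all genes. HSP90B1, a chaperone of the endoplasmic reticulum, was among the lower ones, at 50.5 and 52.8 FPKM in RL and 117, 133 and 135 FPKM in KARPAS-422. All 4 tested metallothionein genes, which bind zinc and copper, were lower in RL, with MT2A at 2.77 and 2.98 FPKM in RL and 37.3, 39.1 and 35 FPKM in KARPAS-422. Among calcium-binding genes S100A4 was at 32.7 and 32.8 FPKM in RL and 0.157, 0.243 and 0.166 FPKM in KARPAS-422, and its neighbour S100A6 was at 0.129 and 0 FPKM in RL and 6.24, 9.07 and 9.7 FPKM in KARPAS-422.

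Developmental transcription factors, many of them known Polycomb targets, were mostly below the filter, with 18 of 60 tested. Of these 9 were lower and 1 was higher in RL by 2-fold or more, beside 17.3% and 16.7% of all genes. MSX1, a homeobox factor, was at 0.0444 and 0.152 FPKM in RL and 9.25, 12.8 and 13.7 FPKM in KARPAS-422, and MEIS1, a cofactor of HOX proteins, at 0.0191 and 0.0438 FPKM in RL and 5.87, 6.79 and 6.75 FPKM in KARPAS-422. HOXA3 was higher in RL by 0.75 ± 0.125 (log2, SE), at 4.37 and 4.12 FPKM against 2.52, 1.7 and 2.15 FPKM in KARPAS-422.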
